A study of Mus musculus with 18 samples.

Results

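The regions described here are PTF-bound active enhancers that GATA6 occupied transiently: 1237 of the 42403 GATA6 binding regions (2.92%) mapped in mouse embryonic stem (ES) cells after Gata6 induction. They were chosen by the deposited classes alone. GATA6 binding was of the Transient class (16285 regions), at least some of OCT4, SOX2 and ESRRB, the pluripotency transcription factors (PTFs), were bound at d0 (5309 of those), no SOX17 peak was called (3961 of those), and the histone state was that of an active enhancer in ES cells. The values that chose these regions were therefore the GATA6 time course, the PTF and SOX17 peak calls and public histone mark data, and these are given below as a description only. DNA sequence, position, ATAC-seq accessibility and the response to Oct4 knockdown did not enter the choice. The classes carry no numeric threshold in the table, so no values just inside or outside one can be given.

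The cells were KH2 ES cells, of mixed C57BL/6 and 129/Sv background, grown on mouse embryonic fibroblast feeders with LIF and carrying a cassette from which doxycycline (Dox, 1 µg/mL) switches on GATA6-3×HA. The series comprises 18 MNase-seq libraries in 6 groups of 3, untreated cells (d0) and cells after 8, 16, 24, 48 or 96 h of Dox, but no value of an MNase library stands in the region table, so nucleosomes were not analysed here. The table joins ChIP-seq and ATAC-seq of the same cells, 1 value per time point. Values are also given for extra-embryonic endoderm (XEN) stem cells, a separate wild-type line derived from early mouse embryos. XEN cells are thus not a time point of the Dox course. For the Oct4 knockdown, cells of a single clone received Oct4 or non-targeting siRNAs together with Dox and were sampled at 48 h. All 6 groups of the Dox course carry the same transgene and feeders, and every time point after d0 is Dox-treated. The time since induction and the dose of induced GATA6 therefore cannot be told apart.

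GATA6 is a zinc-finger factor that binds GATA-type sequences and directs cells of the inner cell mass to the primitive endoderm (PrE), the lineage from which XEN cells derive. OCT4 and SOX2 bind together to a composite motif, an octamer-type part next to a SOX part, and ESRRB is an orphan nuclear receptor that can bind as a monomer. In ES cells these PTFs occupy enhancers of genes that keep the naive state, and active enhancers are known by H3K4me1 together with H3K27ac, poised enhancers by H3K4me1 together with H3K27me3, and primed enhancers by H3K4me1 without either mark. SOX17 is a PrE factor with a SOX domain related to that of SOX2.

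The PTF-bound active regions were compared with 4 sets. The first was 540 PTF-bound poised and the second 1224 PTF-bound primed enhancers, both likewise of Transient GATA6 binding and without SOX17 peaks. The third was 882 active enhancers of Transient GATA6 binding with neither PTF nor SOX17 peaks, called GATA6-only active below, and the last was all 41166 other regions. Regions are not replicates, so shares are given with 95% Wilson intervals and differences of shares with 95% Newcombe intervals, which cover counting error among regions only, and with the number of chromosomes on which a difference had the same direction.

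The windows below show how the GATA6 and OCT4:SOX2 motifs lie under the GATA6 summit, the base with the highest GATA6 signal. Each is 121 bases of the GRCm38 (mm10) plus strand, written 5′ to 3′ with the summit at position 61. Capitals mark the highest-scoring GATA6 and OCT4:SOX2 motifs around the summit where they lie wholly within the printed bases. The first 3 are the windows of the highest OCT4:SOX2 motif scores among the 1237 regions, and they are named after the protein-coding gene with the nearest transcript start.
Pitpnc1, chr11:107352937-107353057: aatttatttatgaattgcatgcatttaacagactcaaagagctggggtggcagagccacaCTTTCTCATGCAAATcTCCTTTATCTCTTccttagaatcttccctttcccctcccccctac
Igfbpl1, chr4:45815639-45815759: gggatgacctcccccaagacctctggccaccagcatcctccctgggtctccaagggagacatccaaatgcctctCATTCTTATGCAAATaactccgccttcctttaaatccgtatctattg
Fbxl17, chr17:63176573-63176693: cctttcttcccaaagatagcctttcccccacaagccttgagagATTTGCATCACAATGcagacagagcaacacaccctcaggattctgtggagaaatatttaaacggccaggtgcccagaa
The Pitpnc1 window, in an intron of that gene, held an OCT4:SOX2 motif on the plus strand that began at the summit base (positions 61 to 75, score 20.2), and 1 base further on a GATA6 motif on the minus strand (positions 77 to 89, score 9.12). In the Igfbpl1 window, within 1 kb of a transcript start, and in the Fbxl17 window, in an intron, only the OCT4:SOX2 motif was present (scores 20.1 and 20.1), and the best GATA6 motif of either region, with scores of 7.63 and 7.86, lay outside the window.

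The next 4 windows stand for the other arrangements. Sestd1 and Tent5c lay by regions in which GATA6 binding was lowered after Oct4 knockdown, Pced1b by one of the highest GATA6 motif scores, and Eipr1 by one of only 2 regions in which GATA6 binding was raised.
Sestd1, chr2:77337964-77338084: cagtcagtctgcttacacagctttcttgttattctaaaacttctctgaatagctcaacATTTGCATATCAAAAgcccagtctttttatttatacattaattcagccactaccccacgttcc
Tent5c, chr3:100420450-100420570: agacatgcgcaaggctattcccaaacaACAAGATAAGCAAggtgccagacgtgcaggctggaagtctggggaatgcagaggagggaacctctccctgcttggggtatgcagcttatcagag
Pced1b, chr15:97379650-97379770: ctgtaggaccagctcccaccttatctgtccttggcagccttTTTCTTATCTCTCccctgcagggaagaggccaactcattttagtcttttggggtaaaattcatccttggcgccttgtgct
Eipr1, chr12:28817592-28817712: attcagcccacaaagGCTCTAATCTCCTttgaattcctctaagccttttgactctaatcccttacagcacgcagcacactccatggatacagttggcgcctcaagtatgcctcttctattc
The Sestd1 window carried an OCT4:SOX2 motif of score 18.9 across the summit (positions 59 to 73), while the best of the region's 4 GATA6 motifs (score 11.7) began before the first printed base and is not in capitals. By contrast, the Tent5c and Pced1b windows each held a GATA6 motif (scores 11.7 and 15.1) and no OCT4:SOX2 motif in capitals. The Tent5c region had 2 OCT4:SOX2 motifs, the best of score 17.4 and not in capitals, whereas the whole Pced1b region had none. The Eipr1 window held a GATA6 motif of score 9.88 towards its edge, at positions 16 to 28.

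The last 3 windows belong to regions near genes of the naive state.
Klf5, chr14:99336980-99337100: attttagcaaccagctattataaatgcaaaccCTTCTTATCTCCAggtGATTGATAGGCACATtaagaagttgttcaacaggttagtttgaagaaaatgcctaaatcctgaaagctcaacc
Klf4, chr4:55482313-55482433: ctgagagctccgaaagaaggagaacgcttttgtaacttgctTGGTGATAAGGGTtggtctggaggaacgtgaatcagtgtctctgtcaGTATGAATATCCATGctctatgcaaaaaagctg
Sox2, chr3:34668548-34668668: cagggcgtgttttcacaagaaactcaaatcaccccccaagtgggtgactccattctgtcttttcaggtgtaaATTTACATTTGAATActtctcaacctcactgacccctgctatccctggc
At Klf5 both motifs stood 3 bases apart, with a GATA6 score of 14.6 beside a weak OCT4:SOX2 score of 7.31. Both were also present at Klf4, 34 bases apart, with scores of 10.1 and 7.05. Higher scores lay elsewhere in both regions and are not in capitals. The best OCT4:SOX2 score of the Klf5 region was 12.6. The Klf4 region had best scores of 12.2 for GATA6 and 9.45 for OCT4:SOX2. The Sox2 window had an OCT4:SOX2 motif of score 12.95, and the whole Sox2 region held no GATA6 motif.

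The GATA6 course, which chose these regions, was highest at its first time point. The deposited signal is the number of reads in a region corrected for library size and joined over libraries, so each time point has 1 value per region and no replicate error. The median GATA6 value of the 1237 regions was 4.12 at 8 h (quartiles 2.54 and 6.39), 2.32 at 16 h, 1.53 at 24 h, 1.23 at 48 h and 0.785 at 96 h, and 0.530 in XEN cells. By 96 h the value was below that at 8 h in 1230 of 1237 regions, and the median ratio of the last to the first was 0.195 (quartiles 0.133 and 0.285).

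PTF values at these regions, highest at d0 or 8 h, were likewise lowest at 96 h within the course. OCT4 had a median of 4.02 at d0, 4.43 at 8 h, 2.59 at 16 h, 2.33 at 24 h, 2.36 at 48 h and 0.799 at 96 h. Its value at 8 h was below that at d0 in only 245 of the regions (19.8%), and at 16 h in 1179 (95.3%). SOX2 went from 4.99 at d0 to 5.11 at 8 h, 3.82 at 16 h, 2.07 at 24 h, 2.45 at 48 h and 0.634 at 96 h, close to its 0.496 in XEN cells. ESRRB, for which the table has no 8 h value, went from 2.40 at d0 to 2.04 at 16 h, 1.45 at 24 h, 0.925 at 48 h and 0.506 at 96 h. The ratios at 16 h to d0 were 0.669 for OCT4, 0.803 for SOX2 and 0.879 for ESRRB (medians), the lowest of the 3 being that of OCT4. From 24 to 48 h the medians of OCT4 and SOX2 were level or higher, while those of GATA6 and ESRRB were lower.

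**Figure D1:**
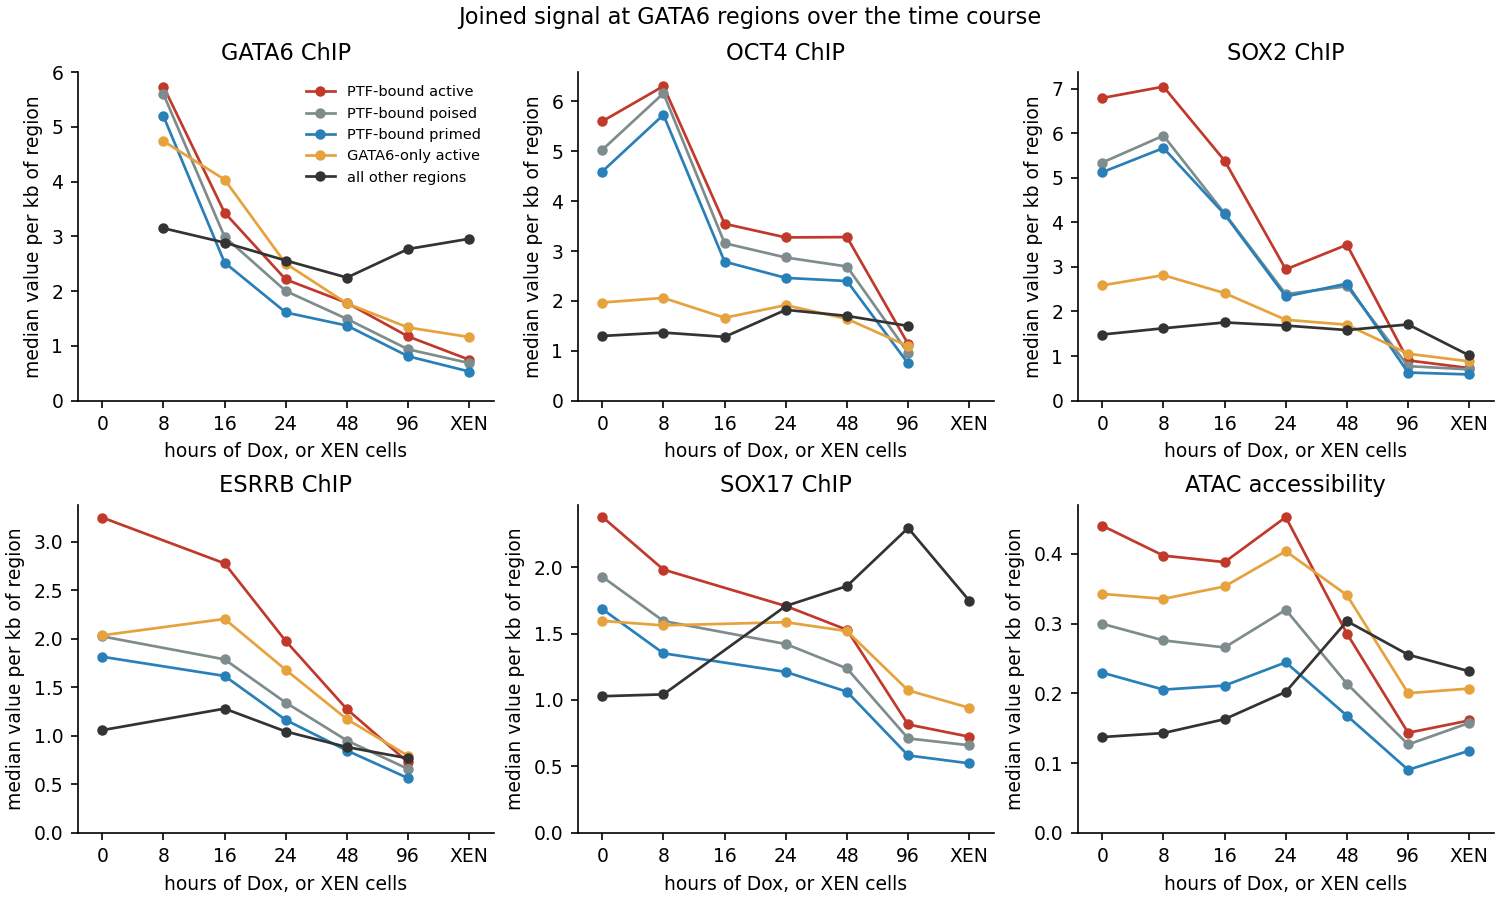
Median deposited signal per kb of region (y axis) against hours of Dox or XEN cells (x axis) for GATA6, OCT4, SOX2, ESRRB and SOX17 ChIP-seq and for ATAC-seq, 1 line per set of regions and no error bars because libraries were joined. The PTF-bound active regions (red) held the highest median OCT4, SOX2 and ESRRB at d0 and the highest GATA6 at 8 h (5.74 per kb), and their ATAC median dropped from 0.440 per kb at d0 to 0.143 at 96 h.

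SOX17 signal, whose peaks were absent by choice, was highest at d0. Its median was 1.70 at d0, 1.37 at 8 h, 1.17 at 24 h, 1.07 at 48 h and 0.575 at 96 h, and 0.497 in XEN cells. Relative to input, the log2 value was 1.14 at d0 and 0.12 at 96 h. The median was also lower at 96 h than at d0 in poised (1.11 and 0.390), primed (1.15 and 0.393) and GATA6-only active regions (0.839 and 0.570), which likewise had no SOX17 peak. In all other regions, which include those with SOX17 peaks, it was 0.529 at d0 and 1.13 at 96 h. The source of SOX17 ChIP-seq signal in untreated cells was not tested.

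Accessibility, which was not used in the choice, set these regions apart from every other set. In untreated cells 535 of 1237 were in the accessible class (43.2%, interval 40.5 to 46.0), 697 in the moderate class (56.3%) and only 5 in the closed class (0.404%). Among all other regions 6.36% were accessible and 63.2% closed. The difference in the accessible share was 36.9 points (34.1 to 39.7) against all other regions, and had the same sign on 20 of 20 chromosomes. It was 25.1 points (20.7 to 29.2) against the poised set (18.1%), 34.1 points (30.9 to 37.3) against the primed set (9.15%) and 30.6 points (26.9 to 34.0) against GATA6-only active regions (12.7%). The public DNase-seq column of the table goes with the histone columns, and whether it entered the histone classes is not given in the sources used here.

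Median accessibility was lower at 8 h and 16 h than at d0, back at the d0 value at 24 h, and lowest at 96 h. The median ATAC value of the 1237 regions was 0.316 at d0, 0.289 at 8 h, 0.268 at 16 h, 0.316 at 24 h, 0.203 at 48 h and 0.0995 at 96 h, and 0.113 in XEN cells. At 8 h 951 regions (76.9%) were below their own d0 value, and at 16 h 933 (75.4%). At 24 h, when the GATA6 median was already at 0.373 of its 8 h value, 562 regions (45.4%) were below it, and at 96 h 1208 (97.7%) were. Median ratios to d0 at 8, 16 and 24 h were 0.9085, 0.8916 and 1.025 here. They were close to these in poised (0.9199, 0.89 and 1.049) and primed regions (0.89, 0.9052 and 1.051). GATA6-only active regions had 1.013, 1.037 and 1.195, and all other regions 1.032, 1.122 and 1.36. The median ratio of 96 h to d0 was 0.332 here, 0.433 in poised, 0.393 in primed and 0.591 in GATA6-only active regions, and 1.71 in all other regions. The median ratio was 0.241 in regions of the accessible class and 0.414 in those of the moderate class, a comparison in which the d0 value defines the class and also stands in the ratio.

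A GATA6 motif under the summit was less common than in all other regions, though more common than in control windows. In windows of 100 bp to either side of the summit base, 671 of the 1237 regions had a GATA6 motif (54.2%, 51.5 to 57.0), against 77.8% of all other regions, a difference of -23.6 points (-26.4 to -20.8) with the same sign on 20 of 20 chromosomes. Control windows 3 kb to either side had one in 32.5% for the PTF-bound active regions and in 33.6% for all others, so both summit shares were above their surroundings. GATA6-only active regions, at 74.1%, exceeded the PTF-bound active ones by a margin near that of all other regions (difference -19.9 points, -23.8 to -15.8). Primed regions had 62.3% (-8.09 points, -12.0 to -4.20), and for poised regions, with 55.7%, the interval of the difference ran from -6.48 to 3.54 points.

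OCT4:SOX2 motifs were the most common of the 4 motifs at these summits. A total of 868 windows had one (70.2%, 67.6 to 72.7; control windows 33.7%), against 40.9% of all other regions (29.2 points, 26.6 to 31.8; 20 of 20 chromosomes) and 30.8% of GATA6-only active regions (39.3 points, 35.3 to 43.2), whose own control windows had 31.5%. Yet the share was lower than in the poised (75.7%, -5.57 points, -9.88 to -1.04) and primed sets (83.3%, -13.2 points, -16.4 to -9.85). ESRRB motifs occurred in 22.7% of windows (control windows 13.2%), 8.02 points (5.74 to 10.5) above all other regions, 6.98 points (2.97 to 10.7) above poised and 4.42 points (1.22 to 7.60) above primed regions, while against GATA6-only active regions the interval ran from -1.04 to 6.02 points. SOX17 motifs, found in 35.7% (control windows 27.3%), differed by -7.58 points (-10.2 to -4.83) from all other regions and by 12.1 points (8.23 to 16.0) from GATA6-only active ones. The difference was -10.9 points (-14.8 to -7.04) from primed regions, and for poised regions its interval ran from -5.28 to 4.40 points.

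**Figure D2:**
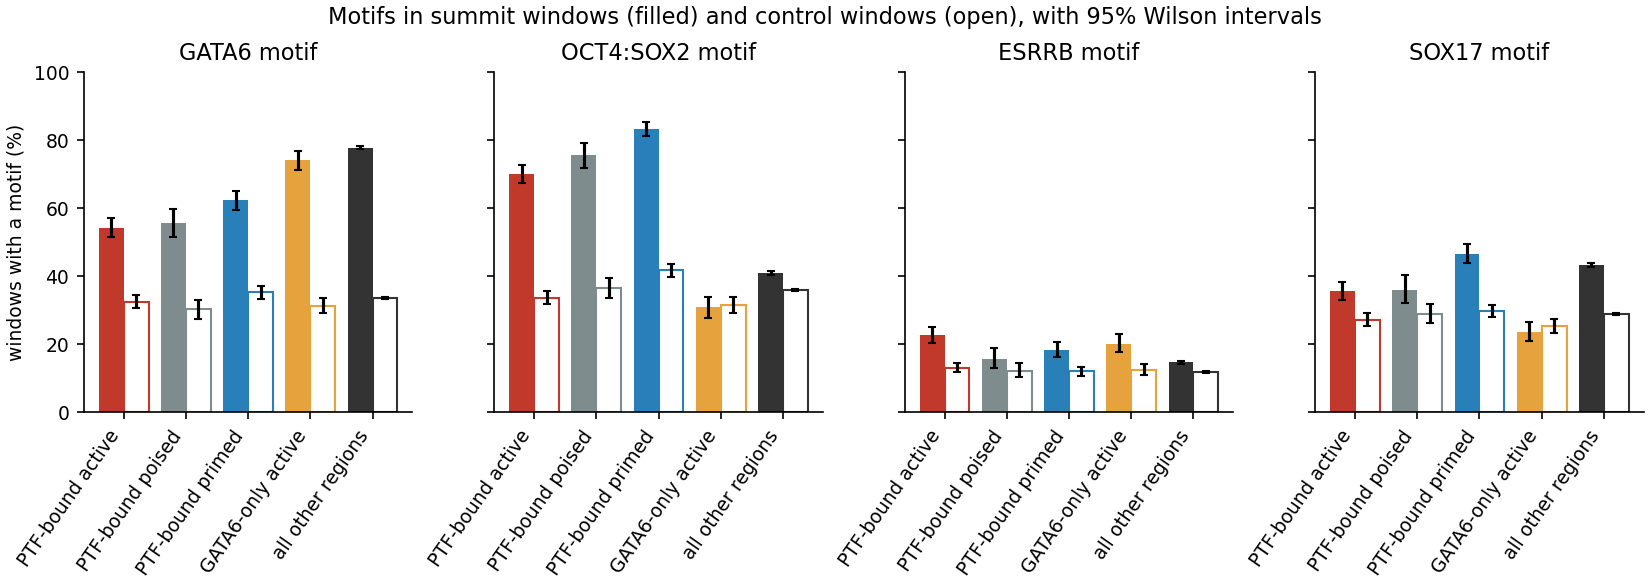
Share of windows (100 bp to either side of a base) with a GATA6, OCT4:SOX2, ESRRB or SOX17 motif (y axis, %) at the GATA6 summit (filled bars) and in control windows 3 kb to either side (open bars) for 5 sets of regions, with 95% Wilson intervals. The PTF-bound active set (red) has the lowest filled GATA6 bar, 54.2%. Its filled OCT4:SOX2 bar, 70.2%, lies between those of the other PTF-bound sets and of the sets without PTF selection.

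Over whole regions, which differ in width, a GATA6 motif was present in 82.3% (1018 regions; all other regions 90.0%, difference -7.67 points, -9.91 to -5.62), an OCT4:SOX2 motif in 92.8% (1148; 21.98 points, 20.3 to 23.4), an ESRRB motif in 51.2% (633; 15.3 points, 12.5 to 18.1) and a SOX17 motif in 72.8% (901; 3.77 points, 1.19 to 6.22). The SOX17 difference thus has opposite signs in regions and in windows, while the other 3 keep theirs.

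Taking both motifs together, 428 summit windows had GATA6 and OCT4:SOX2 (34.6%), 440 had OCT4:SOX2 alone (35.6%), 243 had GATA6 alone (19.6%) and 126 had neither (10.2%). All other regions showed a different partition, with OCT4:SOX2 alone in 9.18% and GATA6 alone in 46.1%. In the poised and primed sets, however, OCT4:SOX2 alone stood in 35.2% and 31.9%, near the share here. The share with both differed little from that of all other regions (2.83 points, 0.188 to 5.56) and the sign held on only 10 of 20 chromosomes. Where both were present, the median distance between their centres was 59 bases (quartiles 29 and 85), against 50 in all other regions. Between the centres of the best motifs of whole regions it was 197 bases (923 regions), against 148. The best GATA6 motif of a region lay a median of 103 bases from the summit (990 regions with a measurable distance). The best OCT4:SOX2 motif lay 67 bases from it (1148 regions). Poised (85 bases for GATA6 and 49 for OCT4:SOX2) and primed regions (86.5 and 59) had the same order. Over all other regions together the order was reversed, with 49 bases for GATA6 and 120 for OCT4:SOX2.

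Motif scores also differed. The best GATA6 score averaged 9.56 ± 2.23 (SD over the 1018 regions with a motif), below the 10.5 ± 2.39 of all other regions. The best OCT4:SOX2 score averaged 10.9 ± 3.29 (1148 regions), above their 8.71 ± 2.72. It was not above that of poised (11.2 ± 3.38) or primed regions (11.2 ± 3.14). The GATA6 score was also below that of poised (9.92), primed (9.92) and GATA6-only active regions (10.2). Within accessible regions the difference from all other regions, -0.94 over all classes, was -0.13. There the sign against the 3 like sets turned, with the score above that of poised (by 0.39), primed (by 0.52) and GATA6-only active regions (by 0.0505). Those sets had only 98, 112 and 112 accessible regions, and no interval was computed within the class. A search for short words on both strands of the summit windows gave a like picture. The GATA word AGATAA stood in 26.9% of these windows, in 54.3% of the windows of all 42403 regions and in 11.1% of the control windows. The octamer ATGCAAAT, which can form part of the OCT4:SOX2 motif, stood in 7.76% against 3.0% of all regions (control windows 1.02%). It was more common in poised windows (12.96%, difference -5.20 points, -8.59 to -2.16), and primed windows had 8.82% (-1.06 points, -3.26 to 1.12). The SOX word ACAATG, which overlaps the SOX17 motif, stood in 13.4% against 22.98% of all regions, and the ESRRB word AAGGTCA in 12.7% against 7.06%. These are matches of letters and not tested sites.

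**Figure D3:**
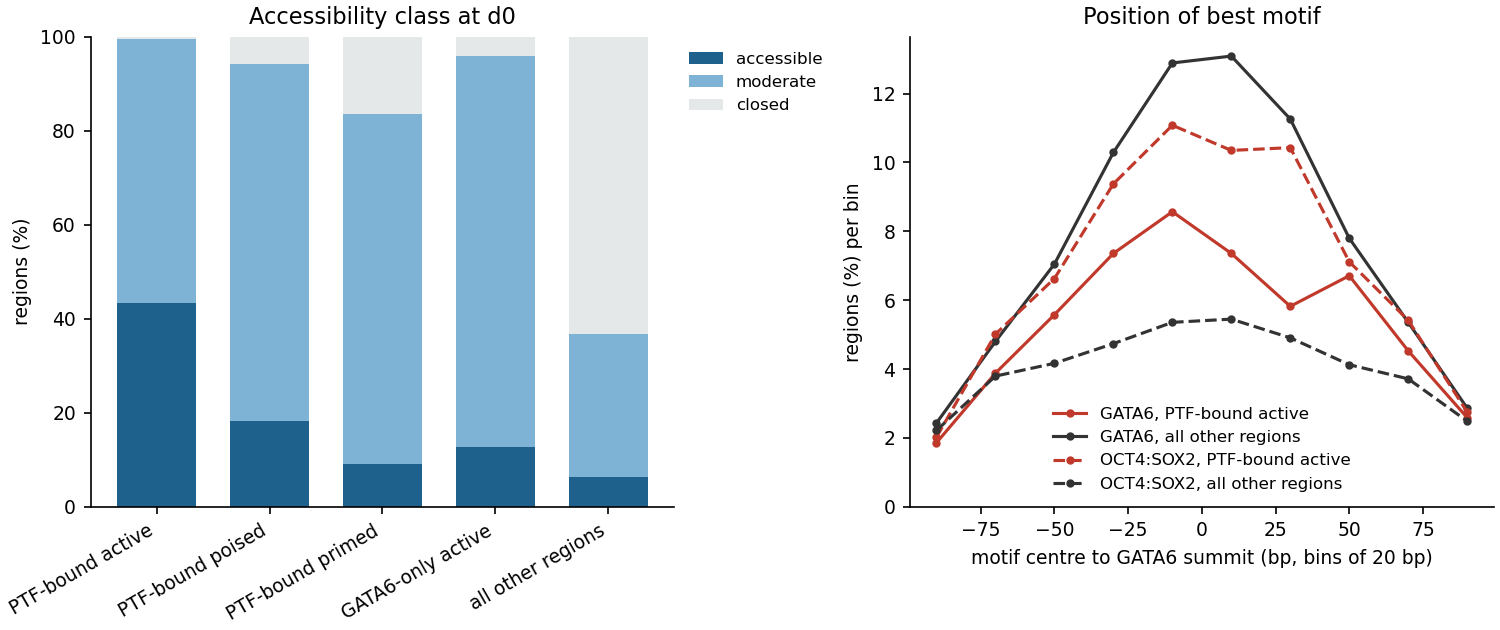
Left, share of regions (%) in the accessible, moderate and closed ATAC class at d0 for 5 sets. Right, share of regions whose best GATA6 (solid) or OCT4:SOX2 (dashed) motif centre falls in each 20-bp bin by distance from the GATA6 summit (x axis, bp), for the PTF-bound active regions (red) and all other regions (black): in red the OCT4:SOX2 line runs above the GATA6 line around the summit, in black below it.

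Accessibility and motif content moved together, so motif shares were also compared within a class. Among accessible regions, a GATA6 motif stood in 42.1% of PTF-bound active windows and in 46.6% of all others, and the interval of the difference ran from -9.10 to 0.07 points. Within the moderate class the shares were 63.4% and 70.3%, a difference of -6.87 points (-10.6 to -3.28). The contrast with all other regions was thus smaller within classes than over all regions, where closed regions make up most of the comparison set. For OCT4:SOX2 the difference was 38.1 points (33.8 to 42.0) within the accessible and 23.7 points (20.0 to 27.2) within the moderate class. Against poised regions the GATA6 difference of -1.50 points over all regions became 14.5 points (4.09 to 23.4) within the accessible class, where 27 of 98 poised windows (27.6%) held the motif. Against primed regions the sign also changed, with the PTF-bound active regions 3.66 points higher (-1.15 to 8.41) within the moderate class.

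Within the 1237 regions, those with a GATA6 motif at the summit were less often accessible and had a lower median OCT4 value at d0. Of 671 regions with the motif 33.5% were accessible, and of 566 without it 54.8% (difference -21.2 points, -26.6 to -15.7). Per kb of region, median GATA6 at 8 h was 6.30 with the motif and 5.13 without, whereas OCT4 at d0 was 4.87 with and 6.75 without. Regions with an OCT4:SOX2 motif at the summit had a median OCT4 of 6.76 per kb at d0, and those without one 3.75. ESRRB at d0 was 7.19 per kb where the window held an ESRRB motif and 2.82 where it did not. Across regions OCT4 and SOX2 at d0 rose together (Spearman's rho 0.829, n = 1237), and each of OCT4 and ESRRB with the score of its own motif (0.437, n = 1148, and 0.468, n = 633), while GATA6 at 8 h was only loosely tied to its motif score (0.162, n = 1018). These correlations are across regions that share the same libraries, and values per kb also share the region width.

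Oct4 knockdown changed the GATA6 class of few of these regions. The authors' test at 48 h placed 67 of the 1237 in the lowered class (5.42%, 4.29 to 6.82), against a background of 6.25% over all 42403 regions, so the share was near that of any GATA6 region (difference from all others -0.861 points, -2.01 to 0.563). Only 2 regions (0.162%, 0.0444 to 0.588) were in the raised class, against a background of 8.57%, and this difference of -8.67 points (-8.97 to -8.16) had the same sign on 20 of 20 chromosomes. Raised regions were also few in the sets most like this one, with 1 of 540 poised (0.185%), 1 of 1224 primed (0.0817%) and 4 of 882 GATA6-only active regions (0.454%), and the interval of each difference spanned 0. GATA6-only active regions were lowered in 1.25%, 4.17 points (2.68 to 5.68) less often, with the same sign on 18 of 20 chromosomes. In the poised (6.11%) and primed (6.70%) sets the lowered shares differed from that of the PTF-bound active set by -0.695 points (-3.30 to 1.53) and -1.28 points (-3.19 to 0.611).

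The size of the change, which needs no class, leaned to lower values far beyond those 67 regions. The log2 ratio of GATA6 signal with Oct4 siRNA to that with control siRNA had a median of -0.41 (quartiles -0.86 and 0.01), against 0.01 in all other regions, -0.43 in poised, -0.59 in primed and -0.17 in GATA6-only active regions. It was below 0 in 925 regions (74.8%), 25.3 points (22.7 to 27.7) more often than in all other regions (49.5%), on 20 of 20 chromosomes, and 13.6 points (9.53 to 17.6) more often than in GATA6-only active regions (61.2%). The log2 ratio is of joined values without replicate error. For SOX17 signal the corresponding median was 0.38 here and 0.65 in all other regions.

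**Figure D4:**
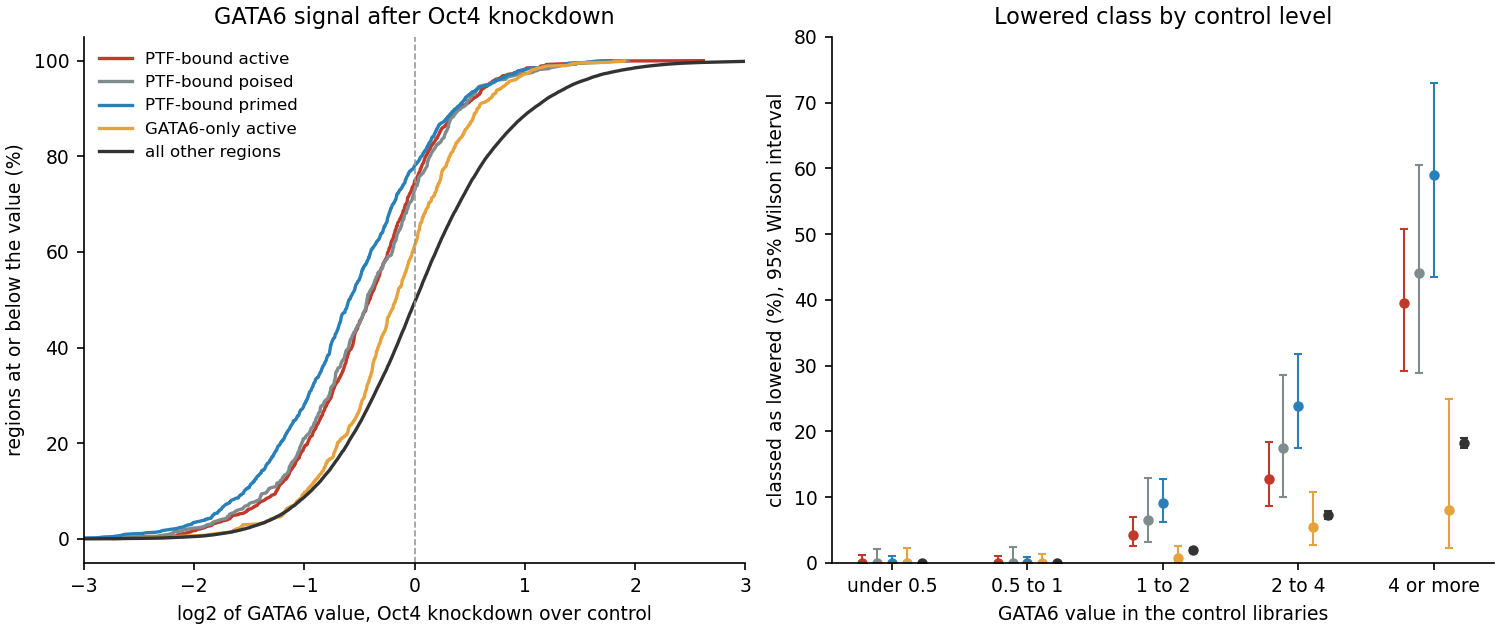
Left, cumulative share of regions (y axis, %) by the log2 ratio of GATA6 signal after Oct4 knockdown to control siRNA (x axis) for 5 sets. Right, share in the lowered class (%, with 95% Wilson intervals) by GATA6 value in the control libraries: the PTF-bound active set (red) goes from 0 in the lowest groups to 39.5% at values of 4 or more, where all other regions reach 18.2%.

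The lowered class depended on how much GATA6 was there at 48 h, when the GATA6 value of most of these regions was already low. No region with a control value under 0.5 (306 regions) or from 0.5 to 1 (346) was lowered, and the same was true of all other regions. From 1 to 2, 14 of 329 were lowered (4.26%, against 1.93% of all other regions), from 2 to 4 23 of 180 (12.8% against 7.25%), and at 4 or more 30 of 76 (39.5%, 29.2 to 50.7, against 18.2%). In the top group the poised set had 44.1% (15 of 34), the primed set 59.0% (23 of 39) and GATA6-only active regions 8.00% (2 of 25). Poised and primed shares were also above those of this set from 1 to 2 (6.54% and 9.03%) and from 2 to 4 (17.5% and 23.9%). With the other regions weighted to the control values of the PTF-bound active set, their lowered share was 2.46%, and the difference of 2.96 points then had the opposite sign to the unweighted one.

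The 67 lowered regions were wider than the unchanged ones (median 1121 against 678 bp) and had more GATA6 signal in the control libraries (3.56 against 0.877). Lowered binding was found in 8.20% of regions with a GATA6 motif at the summit and in 2.12% of those without (difference 6.08 points, 3.67 to 8.57), and the control value also differed, with medians of 1.20 and 0.715. By OCT4:SOX2 motif at the summit no difference was detectable (5.30% with and 5.69% without, interval of the difference -3.53 to 2.19 points), while the control medians were 0.799 with and 1.27 without the motif. Moderately accessible regions were lowered more often (7.03%) than accessible ones (3.18%; difference -3.85 points, -6.30 to -1.36), with control medians of 1.18 and 0.678. The part of the control level in these differences was not tested.

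The lowered regions with the highest OCT4:SOX2 scores were among those of high GATA6 at 8 h. At the Pitpnc1 region (chr11:107352476-107353390, intron) GATA6 was 15.6 at 8 h, 8.51 at 16 h, 4.52 at 24 h, 3.05 at 48 h and 1.07 at 96 h, and at 48 h with siRNAs 1.97 in the control and 0.743 after Oct4 knockdown. At the Tent5c region (chr3:100420176-100421297, intergenic) GATA6 stayed higher, with 14.8, 14.6, 8.98, 7.84 and 2.31 at these times, and the knockdown took it from 11.4 to 4.45. OCT4 there was highest at 48 h, with 5.83 at d0, then 6.90, 6.09, 8.56 and 9.22, and 1.43 at 96 h, a course unlike the median of the set. The Sestd1 region (chr2:77337542-77338650, intergenic) started highest of these with 17.2 at 8 h, reached 2.93 at 48 h, and had 4.37 with control and 1.92 with Oct4 siRNAs. Both raised regions had low OCT4:SOX2 scores of 6.13 and 6.14. At Eipr1 (chr12:28817352-28817948, intron) GATA6 went from 0.575 in the control to 1.78 after knockdown, and near Arl15 (chr13:113730140-113731009, intergenic) from 3.53 to 5.94.

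Strong GATA6 and ESRRB motifs were found at regions of varied behaviour. The highest GATA6 scores belonged to regions in introns of Nmnat2 (chr1:152973734-152974849) and Pced1b (chr15:97379384-97380310), both 15.1, and near Qk (chr17:10365936-10367162), 15.0, and each was in the moderate accessibility class. Nmnat2 combined this with an OCT4:SOX2 score of 15.0 and an OCT4 value of 10.7 at d0, and GATA6 there was 7.09 at 8 h and 0.589 at 96 h. At Pced1b, which had no OCT4:SOX2 motif in the whole region and an OCT4 value of 2.54 at d0, GATA6 was 10.2 at 8 h and still 2.80 at 96 h, and the ATAC value was 0.248 at d0 and 0.290 at 96 h. The highest ESRRB score, 18.1, was shared by regions at Nlk (chr11:78663708-78664677), Akap11 (chr14:78537200-78538523) and Gstp2 (chr19:4046297-4047124), with ESRRB values of 4.82, 6.06 and 9.25 at d0 and 0.614, 1.04 and 1.09 at 96 h. Of these, Gstp2 was in the lowered class, with GATA6 at 6.33 in the control and 3.33 after knockdown.

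These regions were mostly distal. Of the 1237 summits 549 lay in introns (44.4%), 530 between genes (42.8%), 121 within 1 kb of a transcript start (9.78%) and 37 in exons (2.99%). The share near a transcript start differed by -2.68 points (-4.25 to -0.870) from that of all other regions, a direction that turned for starts within 5 kb (0.56 points), and by 6.02 points (4.07 to 8.03) from that of primed regions. The median distance to the nearest protein-coding transcript start was 14171 bp, against 38332 bp for primed, 23500 bp for poised, 8864.5 bp for GATA6-only active and 16396 bp for all other regions. Median GC content in the summit window was 46.8% (primed 42.8%, GATA6-only active 50.2%, all other regions 45.3%), and the median width 699 bp (all other regions 521 bp). From 18 (X) to 94 (chromosome 6) regions lay on a chromosome. They had 1040 different nearest genes, and at gaps of up to 12.5 kb, a distance chosen after the values were seen, 1066 stood alone, while 146 formed 73 pairs, 21 formed 7 triples and 4 stood in a row at Sgms1 (chr19:32240342-32260373). Neighbours of this kind are not independent of each other.

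Genes of the naive pluripotency list had such a region nearby more often than protein-coding genes in general, a comparison without a test. Of 22 genes on the list 10 (45.5%) had one within 100 kb of a transcript start, against 3063 of 21911 protein-coding genes (14.0%). The shares were 4 of 10 for LIF and STAT3 signalling (Il6st, Pim1, Klf4 and Tfcp2l1), 4 of 11 for FGF and ERK signalling (Spred1, Dusp6, Etv4 and Etv5), 3 of 11 for NODAL and BMP signalling (Lefty1, Lefty2 and Bmp4), 4 of 11 for formative and primed pluripotency (Zic2, Zic5, Lef1 and Foxd3) and 2 of 7 for trophoblast (Eomes and Tfap2c). Klf4 and Tfcp2l1 are on both of the first lists. Some genes were counted through the same region: the 3 NODAL and BMP genes had 2 regions between them. The 4 formative and primed genes had 3. A region near a gene is not known to act on it, and the rule itself asked for PTF binding, which genes of the naive list are known for.

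The 10 regions nearest to naive genes all had lower GATA6, OCT4, SOX2 and ESRRB values at 96 h than at first, from very different starting levels. They lay near Esrrb (2621 bp from a transcript start, in an intron of the gene), Tfcp2l1 (14906 bp, intron), Klf2 (2776 bp), Klf4 (49397 bp), Klf5 (37886 bp), Sox2 (18203 bp, in an intron of the noncoding gene Sox2ot), Dppa5a (1419 bp), Mycn (13299 bp), Tet2 (25974 bp, intron) and Nanog (72532 bp). The last of these was 143 bp from a start of Slc2a3, a glucose transporter gene. Nanog, Esrrb, Tfcp2l1 and the Klf genes encode factors of the naive network, and Tet2 an enzyme that oxidises methylated cytosine. GATA6 at 96 h stood at 0.0791 (Sox2) to 0.427 (Tet2) of its 8 h value. OCT4 at 96 h stood at 0.0570 (Mycn) to 0.549 (Tet2) of d0.

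The Klf2 region (chr8:72315857-72316655, intergenic) had the highest GATA6 value of the 10 at 8 h, and the highest OCT4 and SOX2 at d0. GATA6 was 10.97 at 8 h, 4.39 at 16 h, 2.69 at 24 h, 2.80 at 48 h and 2.49 at 96 h. OCT4 went from 19.3 at d0 to 23.7 at 8 h, 9.98, 5.98, 9.20 and 2.32, and SOX2 from 23.2 to 22.9, 14.1, 5.42, 12.9 and 1.67. It held no OCT4:SOX2 motif above the scan threshold.

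The Klf5 region (chr14:99336332-99337596, intergenic) had the highest GATA6 of the 10 in XEN cells, with 5.35 at 8 h, 3.07, 3.37, 2.61 and 1.95 at 96 h, and 2.43 in XEN cells. Its ATAC value of 0.183 at d0 was 0.282 at 48 h and 0.173 at 96 h. The Sox2 region (chr3:34668498-34668833), without a GATA6 motif, had GATA6 at 1.961, 1.73, 0.751, 0.644 and 0.155, and ATAC at 0.361 at d0 and 0.0313 at 96 h. At Tet2 (chr3:133517830-133518579) GATA6 was higher at 16 h (4.18) than at 8 h (3.58), the only one of the 10 with this order.

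**Figure D5:**
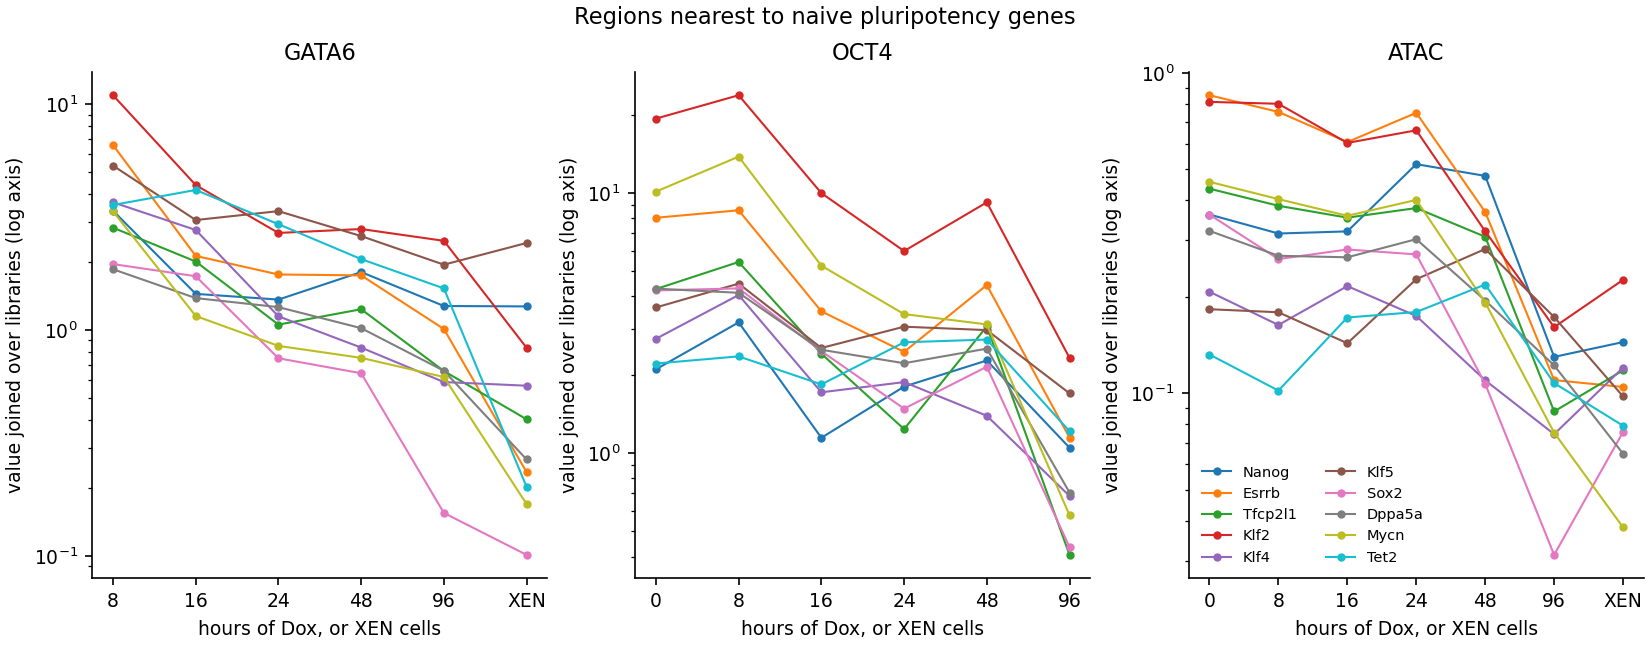
Deposited GATA6, OCT4 and ATAC values (y axes, log scale) against hours of Dox or XEN cells (x axis) at the 10 regions nearest to naive pluripotency genes, 1 line per region, joined over libraries and so without error bars. All 10 are lower at 96 h than at their first time point in each panel, and Klf2 (red) has the highest GATA6 value at 8 h and the highest OCT4 value at d0.

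Of the 10 regions 7 were in the accessible class, 4 had a GATA6 motif and 7 an OCT4:SOX2 motif in the summit window, and 7 and 9 had them anywhere in the region. After Oct4 knockdown all 10 were in the unchanged class, although the log2 ratio was below 0 at 8 of them, from -1.16 at Tfcp2l1 to 0.44 at Dppa5a. GATA6 in the control libraries was between 0.193 (Mycn) and 3.64 (Klf5), so 7 of the 10 were at levels under 1, at which no region of the set was called lowered.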

How the data were processed

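The authors aligned reads to the mouse assembly mm10 and called peaks with MACS2 on merged replicates, keeping those also called in each replicate. The submitters' processing notes name Bowtie2, SAMtools, bcl2fastq and cutadapt, without versions. The deposited table has 42403 regions and 105 columns, of which 89 were used. Left out were 4 columns of single libraries that match no sample of the series and 12 columns that group motif values. Deposited signal values are reads per region corrected by the authors for library size (bamsignals), joined over libraries, on a scale that is not stated. Motif scores in the deposited table come from the authors' FIMO scan with JASPAR matrices. Classes of GATA6 binding and histone state come from the authors' k-means clustering, PTF and SOX17 classes from their peak calls, and the Oct4 knockdown class from their DESeq2 test. The study's methods state an average depth over libraries, but the table holds neither counts nor the depth of each library, and no value carries replicate error.

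Members were selected with Python 3.11.15, pandas 2.3.3 and numpy 2.4.6, and sequence was read from GRCm38 with pysam 0.24.0 (GENCODE M21 annotation). Scoring matrices were rebuilt from the deposited motif sequences and scores and gave the same best score in 100.0% of the regions. They were used to scan summit windows (100 bp to either side) and control windows centred 3 kb to either side, the latter only where they met no GATA6 region. Signal was compared between sets per kb or as a ratio. Shares have 95% Wilson intervals and differences 95% Newcombe intervals, checked on data of known answer. They cover counting error among regions, and neighbouring regions are not independent. No p-value was computed, because regions are not replicates and no library enters.

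The 23 regions named were, by rule, for each naive pluripotency gene the nearest one within 100 kb, the 3 with the highest score of each of the OCT4:SOX2, GATA6 and ESRRB motifs, the 3 lowered ones with the highest OCT4:SOX2 score, and all raised ones if no more than 5. The members, gene lists and comparison sets were chosen with earlier results of these data known. The count for the PrE gene list is not reported here. Alternatives were width standardisation, other windows and distances, accessibility classes and leaving out each chromosome. Standardisation to the control GATA6 level and division by input were added after seeing the data.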

Additional observations from a re-analysis of the deposited data

How the results depend on the processing

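The differences given here are PTF-bound active minus all other regions, in points of share unless stated. For the lowered class, -0.861 points became -2.91 with other regions standardised to the same widths, -2.21 within accessible regions, and 2.96 when standardised to the control GATA6 level, so its sign depends on whether that level is taken into account. Raised binding stayed far below the others, at -10.2 (same widths), -9.09 (over 1 kb from a transcript start) and -8.10 (same control level). Accessible and moderate classes together differed by 62.7 points. For motifs anywhere in a region, the GATA6 difference of -7.67 was -10.9 with the same widths, -23.6 in summit windows and -19.6 for scores above the median. The OCT4:SOX2 difference of 21.98 was then 14.7, 29.2 and 33.8, and the ESRRB difference 8.84 and 8.02 in the first 2 settings. The SOX17 difference of 3.77 turned negative in all 3, at -2.79, -7.58 and -0.58, and against poised regions it was -1.35 with the same widths and -0.38 in windows. For ESRRB against GATA6-only active regions the width standardisation gave -2.47.

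The mean best GATA6 score differed by -0.94, by -0.58 for the mean of all motifs in a region, by -0.13 within accessible and by -0.26 within moderate regions. Over all classes the score, 9.56, was lower than in poised (9.92), primed (9.92) and GATA6-only active regions (10.2). Within accessible regions it was higher than in these sets (by 0.39, 0.52 and 0.0505), and within moderate regions higher than in primed ones (by 0.0337). The OCT4:SOX2 score difference of 2.16 was 1.25, 1.64 and 1.59 in the same order. Against primed regions the mean best score was lower here (10.87 against 11.17). That sign turned for the mean of all motifs (0.21) and within accessible regions (0.0383). Within 5 kb of a transcript start the position difference was 0.56 in place of -2.68. The distance between the centres of best motifs exceeded that of other regions by 49 bp, or by 13 bp where both lay within 100 bp of the summit. Dividing each GATA6 value by its input moved the median log2 ratio of 96 h to 8 h from -2.36 to -2.02 here, and to -0.24 in all other regions, where it had been above 0. The causes of these shifts were not tested.

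Leaving out each chromosome in turn changed no sign of a difference from all other regions (lowered -1.01 to -0.595, GATA6 motif -8.08 to -6.91, SOX17 motif 3.26 to 4.35 points). No paired analysis was possible because the table carries no replicate values, and for the same reason no replicate could be left out. The depth behind single values is not in the table, and without replicates the intervals do not cover variation between cultures.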
